A study of Mus musculus with 48 samples.

Results

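Primary CD4+ T cells that received the highest dose of a T cell receptor (TCR) stimulus while PD-1 was engaged were set against cells that received 1/100 of that dose without PD-1 engagement. The stimulus was 2C11, an antibody to CD3, the signalling part of the TCR. The question this comparison addresses is whether the engaged top-dose state equals a weaker stimulus or differs from it. The members were chosen by their labels: 3 libraries at 10000 ng/ml 2C11 with PD-1 engagement (CD4_10000_L1) and 2 libraries at 100 ng/ml 2C11 without it (CD4_100), 5 of the 48 libraries of the series. The unengaged groups at 0, 10, 1000 and 10000 ng/ml (2, 2, 2 and 3 libraries) served to place the engaged cells on the dose series, and the engaged group at 0 ng/ml (2 libraries) showed how engaged and unengaged cells differed without 2C11. All of these cells came from BALB/cCrSlc mice, and the libraries counted the 5′ ends of capped RNA by CAGE (cap analysis of gene expression), which reports how often transcription starts at each site. The labels give neither the way PD-1 was engaged, nor the time of stimulation, nor the age or sex of the mice. They also do not say whether replicates came from separate cultures or animals, so p-values measure the spread between these libraries, which may be technical.

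PD-1 is an inhibitory receptor that T cells display after activation. When bound by its ligands PD-L1 or PD-L2 it recruits phosphatases that dampen signals from the TCR and from the costimulatory receptor CD28. A TCR signal first switches on transcription factors such as those of the Egr, Fos and Nr4a families, then cytokine genes such as Il2, and genes for ribosome assembly and growth. It also switches off genes that keep naive T cells at rest and let them recirculate through lymph nodes, such as Klf2 and S1pr1.

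The engaged top-dose libraries held 5.97 to 10.49 M tags and the 100 ng/ml libraries 9.881 and 22.58 M tags. Values are RPM, reads per 1 M tags of the library, summed over the start sites of a gene. Within 22 CD4 libraries the first principal component held 68.3% of the variance and followed the dose. On it the engaged top-dose libraries lay at 36.8, 42.5 and 38.9, against -9.17 and -3.79 for the 100 ng/ml libraries, 40.2 and 44.4 for the unengaged 1000 ng/ml libraries and 44.3 to 48.1 for the unengaged 10000 ng/ml libraries. Engaged replicates 2 and 3 stood apart on the third component (3.16% of the variance), at -17.7 and -25.2, while engaged replicate 1 was at 2.58, so main counts are also given without them. Engaged and unengaged cells also differed without any 2C11. At 0 ng/ml, 78 of 10217 genes (0.763%) were called higher and 1389 (13.6%) lower in the engaged libraries, with a median log2 difference of -0.23. With quantile normalization these counts were 98 and 32 and the median -0.01. The part of this difference in the results below was not tested.

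**Figure D1:**
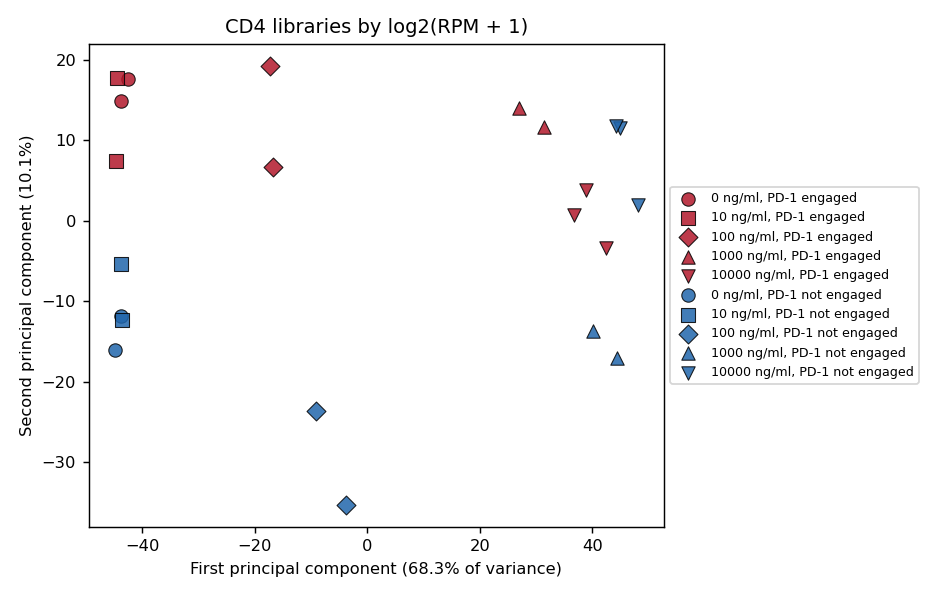
Each point is a CD4 library, placed by the first 2 principal components of log2(RPM + 1), with colour for PD-1 engagement and shape for the 2C11 dose. The engaged 10000 ng/ml libraries (36.8 to 42.5 on the first axis) lie by the unengaged 1000 and 10000 ng/ml libraries (40.2 to 48.1) and far from the unengaged 100 ng/ml libraries (-9.17 and -3.79), while on the second axis engaged libraries lie above unengaged ones at 0 ng/ml (14.8 and 17.5 against -11.8 and -16.1) but mostly below them at 10000 ng/ml (-3.44 to 3.76 against 1.96 to 11.7).

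Engaged top-dose cells were not at the 100 ng/ml level: cytokine and ribosome biogenesis genes were mostly higher and genes of the resting state lower than in 100 ng/ml cells. A gene was called where the adjusted p of a limma fit on log2(RPM + 1) was under 0.05. Of 10217 genes, 1517 (14.8%) were higher and 3959 (38.7%) lower in the engaged cells, 53.6% in all, and 201 of the higher and 629 of the lower genes differed at least 2-fold. Scaling by library totals left a median difference of -0.21 over all genes. With quantile normalization the median was -0.01 and the split 2452 higher to 2542 lower, and with TMM factors 0.02 and 2742 to 2344. Log2 differences of single genes below are as fitted, with that shift in them, and medians of gene lists are given relative to it. The count of higher genes was 1008 without CD4_100 replicate 1, and the counts were 1145 and 2679 without engaged replicates 2 and 3. For 7823 genes (76.6%) the 95% interval of the difference lay within 2-fold, and for 3828 (37.5%) within 1.5-fold. In bulk RNA, fewer cells with a transcript and less of it per cell cannot be told apart.

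The same engaged libraries differed less from the 2 higher unengaged doses. Against 1000 ng/ml, 744 genes (7.28%) were called, 130 (1.27%) higher and 614 (6.01%) lower, and against 10000 ng/ml 866 genes (8.48%), 602 (5.89%) higher and 264 (2.58%) lower. The 1000 ng/ml count rested on single libraries: it was 16 and 12 without either CD4_1000 library, 140 without engaged replicate 3 and 1164 without engaged replicate 1. With quantile normalization its split was 283 higher to 197 lower. The 10000 ng/ml count was 261 without engaged replicate 3, 344 without engaged replicate 2, 425 and 295 without CD4_10000 replicates 1 and 3, and 20 without engaged replicates 2 and 3. Its split was 481 higher to 360 lower with quantile normalization and 563 to 587 with DESeq2. With the mean B cell marker level as a covariate the split turned to 330 higher and 748 lower against 10000 ng/ml, and was 103 to 2091 against 1000 ng/ml. The median size of the log2 difference was 0.38 against 100 ng/ml, 0.18 against 1000 ng/ml and 0.14 against 10000 ng/ml. These comparisons share the engaged libraries. By the same rule 6148 genes (60.2%) were called between the unengaged 10000 and 100 ng/ml groups, 16.8% of all genes as higher and 43.3% as lower at 10000 ng/ml.

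The promoters of 4 genes are shown. Il2 is a cytokine gene well above its 100 ng/ml level, and Ifng is one less far above it. Ccl1 is a chemokine gene close to its 100 ng/ml level, and Klf2 is a resting-state gene well below it. The engaged means of Il2, Ifng and Ccl1 all lay between the unengaged 100 and 1000 ng/ml means. Each promoter runs from 250 bases before to 50 after the start, 5′ to 3′ on the gene's strand. The sequences are from RefSeq on GRCm38.p6, a newer build than the mm9 of the tag clusters. Il2 is at chr3:37125905-37126204 (minus strand), Ifng at chr10:118440796-118441095 (plus), Ccl1 at chr11:82179763-82180062 (minus) and Klf2 at chr8:72318812-72319111 (plus). Capitals mark matches, on either strand, to GGAAAA of NFAT sites, TATAAA of the TATA box, TGANTCA of AP-1 sites, CACGTG of E-boxes and CCGGAAG of ETS sites.
Il2: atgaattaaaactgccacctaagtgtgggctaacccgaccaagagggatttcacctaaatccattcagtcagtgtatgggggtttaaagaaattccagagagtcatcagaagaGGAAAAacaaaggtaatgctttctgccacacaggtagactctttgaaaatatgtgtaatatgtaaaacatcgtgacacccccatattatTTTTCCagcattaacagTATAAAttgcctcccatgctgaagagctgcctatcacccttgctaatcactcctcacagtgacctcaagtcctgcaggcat
Ifng: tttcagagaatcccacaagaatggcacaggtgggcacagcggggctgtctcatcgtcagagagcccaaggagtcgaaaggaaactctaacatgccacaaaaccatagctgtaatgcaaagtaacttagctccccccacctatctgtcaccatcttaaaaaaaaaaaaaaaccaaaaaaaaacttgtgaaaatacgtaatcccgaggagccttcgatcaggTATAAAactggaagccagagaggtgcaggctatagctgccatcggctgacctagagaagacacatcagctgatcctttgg
Ccl1: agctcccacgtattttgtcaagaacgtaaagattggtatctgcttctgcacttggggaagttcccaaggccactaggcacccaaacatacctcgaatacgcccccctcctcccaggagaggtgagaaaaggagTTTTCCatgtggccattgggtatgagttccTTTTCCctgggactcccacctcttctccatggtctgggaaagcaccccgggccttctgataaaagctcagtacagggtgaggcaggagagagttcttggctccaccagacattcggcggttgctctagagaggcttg
Klf2: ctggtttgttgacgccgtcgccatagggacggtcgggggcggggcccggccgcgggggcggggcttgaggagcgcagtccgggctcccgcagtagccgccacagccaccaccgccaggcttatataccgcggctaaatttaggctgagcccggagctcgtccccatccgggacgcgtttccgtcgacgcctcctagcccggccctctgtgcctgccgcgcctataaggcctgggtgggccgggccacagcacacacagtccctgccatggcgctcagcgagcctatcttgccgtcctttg
Il2 held GGAAAA letters at -137 and -48 and TATAAA at -31, Ifng TATAAA at -30, and Ccl1 GGAAAA letters at -117 and -87, counted from the start, and the Klf2 window held none of these letters. Of 27025 promoters in the table, 23.6% hold GGAAAA, 14.2% TATAAA, 7.93% TGANTCA, 7.24% CACGTG and 9.12% CCGGAAG. No matches overlapped, and a match is a stretch of letters, not a shown binding site.

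Of the 16 cytokine genes measured 10 rose, Il2 and Il4 by the widest margins, while others passed by little or did not pass. Il2, the gene of the growth factor interleukin 2 (mm9 chromosome 3, 37024875 to 37024878, minus strand, as deposited), had 43.37, 55.31 and 45.23 RPM in engaged top-dose libraries, against 4.453 and 7.441 RPM at 100 ng/ml. The groups did not overlap, and the difference was 7.18-fold (log2 2.84, SE 0.22, adjusted p = 7.88e-09). Unengaged cells had 50.18 and 73.01 RPM at 1000 ng/ml and 71.62 to 94.05 RPM at 10000 ng/ml. Il4, the cytokine of type 2 helper cells (chromosome 11, 53432166 to 53432169, minus strand), had 166.9, 213.2 and 142.2 RPM in engaged libraries, against 29.15 and 37.65 RPM at 100 ng/ml (log2 2.34, SE 0.21, adjusted p = 4.29e-08). The Il4 groups did not overlap, and the mean of the unengaged 1000 ng/ml libraries was higher than all 3 engaged values, at 319.5 RPM. Ifng, the cytokine of type 1 helper cells (chromosome 10, 117878101 to 117878102, plus strand), had 19.73, 20.48 and 13.06 RPM in engaged libraries and 7.287 and 8.946 RPM at 100 ng/ml. It was higher by 1.02 (SE 0.20, adjusted p = 3.71e-04), and its engaged level stayed well under the 46.07 and 62.67 RPM of 1000 ng/ml cells.

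In all, 10 cytokine genes rose and 1 fell, with a list median 0.72 above the median of all genes on the log2 scale. Csf2, which encodes GM-CSF, rose by 1.86, Lif by 1.95 and Tnf by 0.44. Il21, which supports B cell help, rose by 1.53. Ltb, the lymphotoxin beta gene that resting T cells express, fell by 1.02. Il13 (log2 0.08), Il5 (0.25) and Il17a (0.19) did not pass the test. Of 6 chemokines 3 rose and none fell, with a median 0.96 above that of all genes (4 and 0 with quantile normalization). Ccl4, which encodes an inflammatory chemokine, had 61.28, 48.77 and 52.43 RPM in engaged libraries, against 14.47 and 12.98 RPM at 100 ng/ml (log2 1.90, SE 0.18, adjusted p = 1.09e-07). Ccl3, another inflammatory chemokine gene, rose by 1.25 and Cxcl10, an interferon-inducible chemokine, by 1.21. The Cxcl10 values, 19.16, 13.51 and 13.23 RPM, lay above the 5.667 and 6.245 RPM of 100 ng/ml cells and also above the 7.202 and 8.526 RPM of 1000 ng/ml cells. Ccl1, whose product attracts cells with the receptor CCR8 (chromosome 11, 81993313 to 81993316, minus strand), had 50.04, 49.72 and 58.29 RPM in engaged libraries, close to 39.77 and 45.57 RPM at 100 ng/ml. That difference did not pass the test (log2 0.30, 95% interval -0.01 to 0.60, adjusted p = 0.0921), though it did with quantile normalization, TMM factors, edgeR and DESeq2.

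**Figure D2:**
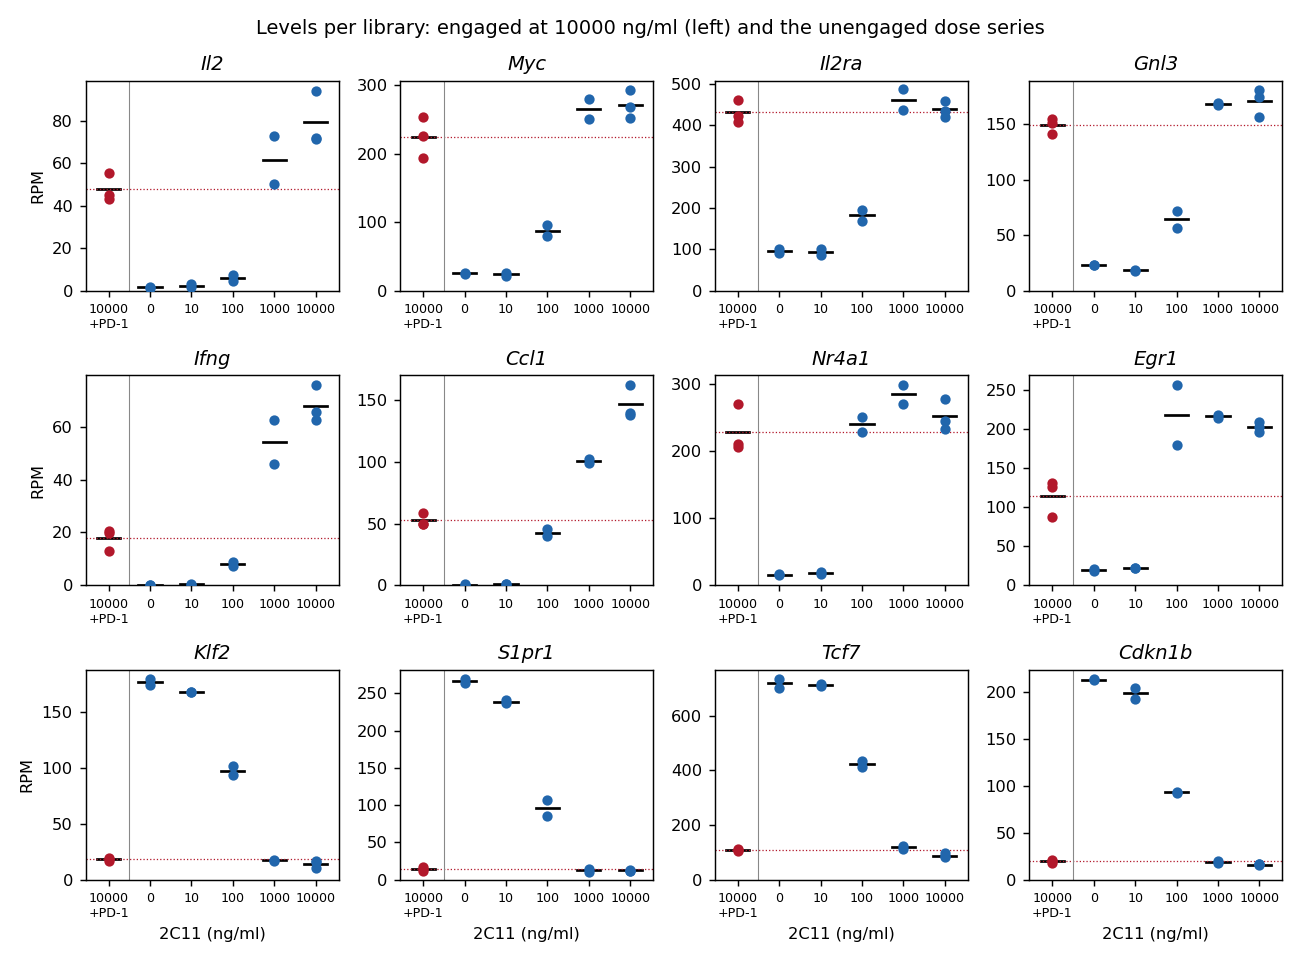
RPM of 12 genes per library (points) and group means (bars) for the engaged 10000 ng/ml cells at the left and the unengaged dose series from 0 to 10000 ng/ml, with the engaged mean drawn across as a dotted line. For Il2, Myc, Il2ra and Gnl3 the line runs between the 100 and 1000 ng/ml means, closer to the 1000 ng/ml mean. For Ccl1 it runs near the 100 ng/ml points and for Nr4a1 near the 100 and 10000 ng/ml points. It runs below the 100 ng/ml points for Egr1. For Klf2, S1pr1, Tcf7 and Cdkn1b it runs at the bottom with the 1000 and 10000 ng/ml points.

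Genes of the resting state were far below their 100 ng/ml level in engaged top-dose cells. Klf2, the transcription factor that maintains T cell quiescence (chromosome 8, 74842959 to 74842961, plus strand), had 19.35, 17.00 and 18.26 RPM in engaged libraries, against 101.5 and 93.54 RPM at 100 ng/ml (log2 -2.36, SE 0.15, adjusted p = 1.17e-09). Unengaged 1000 ng/ml cells had 17.5 and 16.7 RPM, close to the engaged values. S1pr1, the receptor by which T cells leave lymph nodes (chromosome 3, 115417711 to 115417859, minus strand), had 17.06, 11.19 and 14.91 RPM in engaged libraries and 106.4 and 84.95 RPM at 100 ng/ml (log2 -2.66, SE 0.13, adjusted p = 1.30e-10). Tcf7, which encodes the naive and memory factor TCF-1 (chromosome 11, 52096815 to 52096873, minus strand), had 107.9, 104.1 and 110.4 RPM in engaged libraries, against 435.1 and 412.4 RPM at 100 ng/ml (log2 -1.97, SE 0.08, adjusted p = 4.03e-12). None of the 3 genes overlapped between the groups.

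Of the 23 naive, quiescence and lymph node trafficking genes measured, 22 fell and none rose, and the list median was 1.01 below that of all genes. With TMM factors 21 fell and 1 rose. The glucocorticoid-induced factor gene Tsc22d3 fell by 2.43, Pik3ip1, an inhibitor of PI3 kinase, by 2.43, and Ccr7, the receptor that guides T cells into lymph nodes, by 1.66. Lef1, a transcription factor related to TCF-1, fell by 1.38, and Il7r, the receptor for the survival cytokine interleukin 7, by 1.10. Among genes of at least median abundance (23.3 RPM), the 12 with the largest falls also held Cdkn1b, which encodes the cell cycle inhibitor p27 (fell by 2.19), S1pr4 (fell by 1.98), Cmah (fell by 2.13), Kif21b (fell by 2.11), Fam65b (fell by 2.00), Nsg2 (fell by 1.96), Pik3r5 (fell by 1.88) and Ikbke (fell by 1.87). Actg1, a cytoplasmic actin gene, was named by the same rule but rested on 1 library. It had 1155, 1210 and 83.25 RPM in engaged libraries, against 1788 and 1763 RPM at 100 ng/ml (log2 -1.86, SE 0.67, adjusted p = 0.026), and lost its call in 7 alternatives. Of 9 anergy-associated genes 7 fell and none rose (5 and 2 with TMM factors), beside 38.7% lower and 14.8% higher among all genes. Dgka, a kinase that removes diacylglycerol, fell by 1.32 on the log2 scale.

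Genes of ribosome assembly and growth were higher in engaged top-dose cells. Myc, the transcription factor that drives growth of activated T cells (chromosome 15, 61816943 to 61817104, plus strand), had 225.7, 254.2 and 194.5 RPM in engaged libraries, against 80.25 and 95.49 RPM at 100 ng/ml (log2 1.34, SE 0.13, adjusted p = 7.81e-08). Of 23 ribosome biogenesis genes 22 rose and none fell, with a median 1.05 above that of all genes. Gnl3, the nucleolar protein nucleostemin (chromosome 14, 31832200 to 31832248, minus strand), had 154.5, 151.2 and 140.9 RPM in engaged libraries, against 56.78 and 71.79 RPM at 100 ng/ml (log2 1.21, SE 0.13, adjusted p = 4.55e-07). The ribosome assembly genes Rrp9, Nop16 and Nop2 rose by 1.36, 1.23 and 1.17. Polr1a, the largest subunit of RNA polymerase I, was the member that did not pass (log2 0.32, adjusted p = 0.115).

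Of 64 cytoplasmic ribosomal protein genes 41 rose and 3 fell (55 and 0 with TMM factors), with a median 0.50 above that of all genes. Rpl5 rose by 1.21, Rpl37 by 1.19 and Rpl14 by 1.08, while Rps15, Rpl39 and Rpl4 fell by 0.60, 0.24 and 0.23. Rpl5 was already higher in engaged cells at 0 ng/ml, with 88.11 and 104.5 RPM against 45.17 and 47.06 RPM (log2 1.04, adjusted p = 0.0127), and in all 5 genes of this list were higher and 2 lower there. Many ribosomal protein genes have near-identical pseudogenes, and how the authors assigned such tags is not stated. Rplp1 had 903.5, 1932 and 1352 RPM in engaged libraries, against 1996 and 254.4 RPM at 100 ng/ml, so its sign depended on which 100 ng/ml library was used: the log2 difference was 2.38 without replicate 1 and -0.58 without replicate 2 of CD4_100. Heat shock proteins and chaperones rose in 7 of 11 cases with none lower, among them Hspe1 (1.13), Hspd1 (0.73), Hspa8 (0.61) and Hspa9 (0.56), and their median was 0.69 above that of all genes. Of 16 genes of amino acid supply and the integrated stress response 6 rose and 2 fell (2 and 2 with B cell markers as a covariate). Among all genes 14.8% were higher and 38.7% lower. Asns, asparagine synthetase, rose by 0.58 and Shmt2, a mitochondrial enzyme of serine use, by 0.45. Trib3 and Ddit3, genes of the stress response itself, fell by 0.83 and 0.53.

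The medians of the metabolic and cell cycle lists lay close to that of all genes, with members on both sides. Of 18 glycolysis genes 3 rose (Slc16a1, a lactate carrier, by 0.69, Hk2 by 0.58 and Ldha by 0.35) and 5 fell, with the glucose carrier Slc2a3 down by 1.67 and Hk1 by 0.85, and the split was 5 to 4 with TMM factors. Of 25 cholesterol and fatty acid synthesis genes 1 rose and 9 fell, led by Srebf1 (fell by 0.89) and Scd2 (fell by 0.85), but 6 rose and 5 fell with TMM factors. Of 23 cell cycle and DNA replication genes 1 rose and 8 fell, and 6 rose and 2 fell with TMM factors. E2f2 fell by 1.65 and the cyclin gene Ccnd3 by 1.04, whereas Mki67, the proliferation marker Ki-67, had 39.27, 92.05 and 86.09 RPM in engaged libraries, which overlapped the 90.38 and 102.2 RPM of 100 ng/ml cells and did not pass (adjusted p = 0.109). The overlap came from engaged replicate 2, and Mki67 was called lower without engaged replicate 2 (log2 -0.71, adjusted p = 0.0293), without replicate 3 (-0.67, adjusted p = 0.0494) and without both (-1.27, adjusted p = 3.19e-04). Genes of survival, apoptosis and growth arrest, 16 in number, split into 3 that rose and 7 that fell (6 and 4 with TMM factors). Of all genes 14.8% were higher and 38.7% lower. Gadd45g, a stress-inducible gene, rose by 1.31 and Bbc3, which encodes the death-promoting protein PUMA, fell by 1.62.

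**Figure D3:**
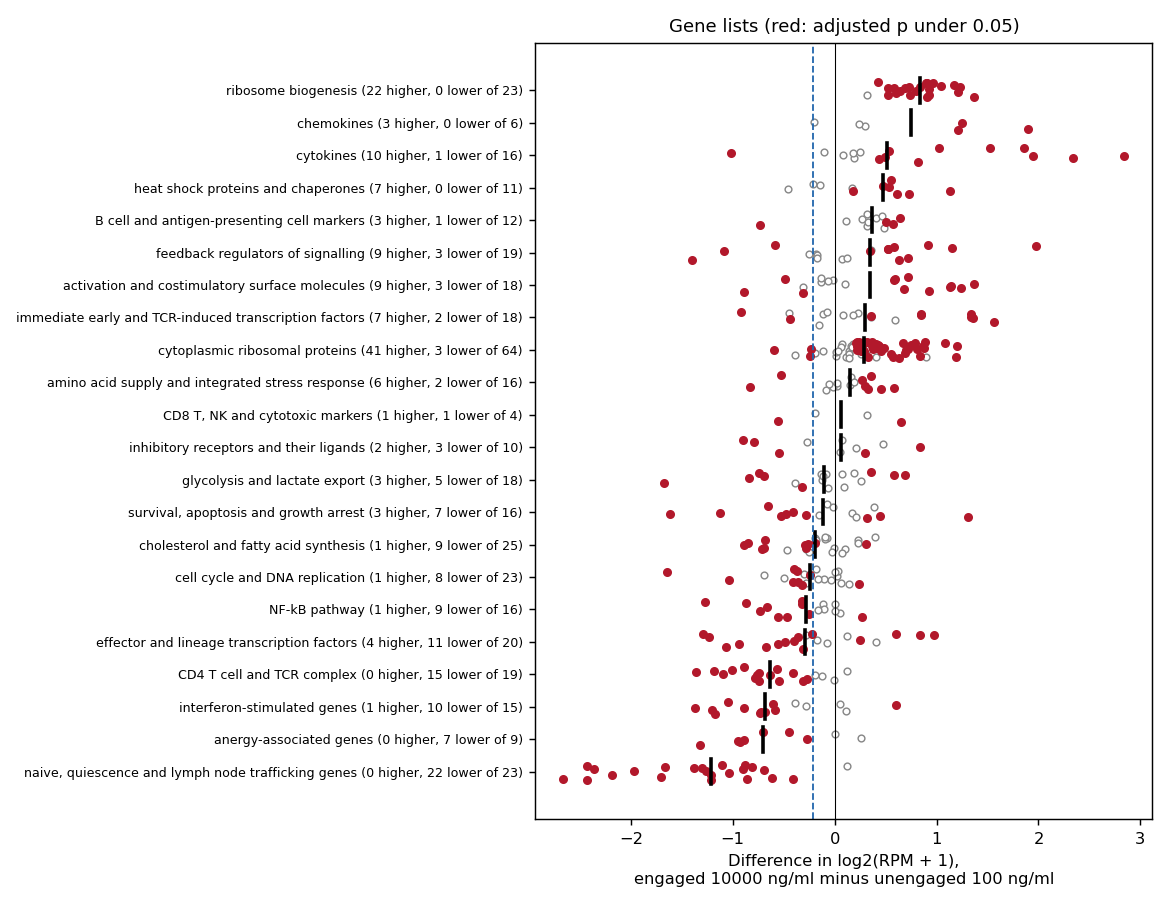
Difference in log2(RPM + 1) between engaged 10000 ng/ml and unengaged 100 ng/ml cells for every measured gene of 22 lists, with called genes in red, other genes open, list medians as black bars and the median of all genes (-0.21) as a dashed line. Ribosome biogenesis (22 of 23 higher) and naive genes (22 of 23 lower) lie at the ends. Glycolysis and cell cycle lie near the dashed line with genes on both sides. The median of inhibitory receptors lies 0.27 above that line, also with genes on both sides.

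Surface molecules and their regulators did not move as 1 group. Of 18 activation and costimulatory molecules 9 rose and 3 fell (10 and 1 with TMM factors), with a median 0.55 above that of all genes. Il2ra, the alpha chain of the IL-2 receptor (chromosome 2, 11564432 to 11564478, plus strand), had 423.2, 460.7 and 408.0 RPM in engaged libraries, against 168.0 and 195.9 RPM at 100 ng/ml (log2 1.24, SE 0.10, adjusted p = 8.92e-09). Its engaged values were level with the 420.1 to 458.9 RPM of unengaged 10000 ng/ml cells. Cd40lg, the ligand that licenses B cells, rose by 1.37, Tnfsf14 by 1.14 and Slamf1 by 1.14. Il2rb, the beta chain of the same receptor, fell by 0.89. Cd69, an early activation marker, had 64.81, 74.95 and 67.50 RPM in engaged libraries, which overlapped the 70.34 and 81.98 RPM at 100 ng/ml (log2 -0.14, 95% interval -0.39 to 0.12, adjusted p = 0.359). Its sign turned to 0.10 with TMM factors. Unengaged means of Cd69 were 93.44 RPM at 1000 and 90.84 RPM at 10000 ng/ml. Unengaged 10000 ng/ml cells did not pass against 100 ng/ml for this gene (log2 0.25, adjusted p = 0.082).

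With scaling by library totals, PD-1 itself and its ligand were near their 100 ng/ml level. Pdcd1, the gene for PD-1 (chromosome 1, 95949130 to 95949158, minus strand), had 76.92, 60.80 and 59.30 RPM in engaged libraries and 60.72 and 63.42 RPM at 100 ng/ml (log2 0.07, 95% interval -0.17 to 0.31, adjusted p = 0.627). Cd274, the gene for PD-L1 (chromosome 19, 29441941 to 29441953, plus strand), had 97.60, 96.06 and 99.33 RPM in engaged libraries, inside the 85.62 and 103.7 RPM of 100 ng/ml cells (log2 0.05, 95% interval -0.13 to 0.23, adjusted p = 0.642). Both intervals lie within 1.5-fold, and both genes were called higher with edgeR, DESeq2 and TMM factors. The range of these genes above 100 ng/ml was narrow. Unengaged 10000 ng/ml cells had means of 82.67 RPM for Pdcd1 and 120.3 RPM for Cd274, which were 0.40 and 0.35 above 100 ng/ml on the log2 scale. Without 2C11 both were already lower in engaged cells, Pdcd1 with 9.043 and 9.221 RPM against 14.44 and 15.49 RPM (log2 -0.66, adjusted p = 0.00988) and Cd274 with a log2 difference of -0.38 (adjusted p = 0.0199). The median of all genes there was -0.23, and the 1389 lower calls among all genes became 32 with quantile normalization. Of 10 inhibitory receptors and ligands measured, 2 rose and 3 fell (6 and 3 with TMM factors), beside 14.8% and 38.7% of all genes. Havcr2, the gene for TIM-3, rose by 0.84 and Tigit by 0.30, and Cd96, Ctla4 and Lag3 fell by 0.90, 0.79 and 0.54.

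The early transcription factors divided. Of 18 measured, 7 rose and 2 fell (10 and 1 with TMM factors), and their median was 0.50 above that of all genes. Atf3 rose by 1.56, the AP-1 factor Fosl1 by 1.36 and the orphan nuclear receptor gene Nr4a3 by 1.34. Its relative Nr4a1, also called Nur77 (chromosome 15, 101097276 to 101097283, plus strand), had 270.1, 210.9 and 206.0 RPM in engaged libraries, which overlapped the 229.2 and 251.0 RPM of 100 ng/ml cells. Its difference was -0.08 (95% interval -0.39 to 0.24, adjusted p = 0.685) and turned to 0.17 with TMM factors. Unengaged means of Nr4a1 were 284.9 RPM at 1000 and 252.3 RPM at 10000 ng/ml. Unengaged 10000 ng/ml cells did not pass against 100 ng/ml either (log2 0.07, adjusted p = 0.712), so Nr4a1 does not tell these doses apart. Egr2, a zinc finger factor (chromosome 10, 67000615 to 67000618, plus strand), had 186.7, 169.8 and 158.5 RPM in engaged libraries and 100.6 and 127.3 RPM at 100 ng/ml. The groups did not overlap, and the difference of 0.59 missed the threshold (adjusted p = 0.0572), but passed it with quantile normalization, TMM factors, edgeR and DESeq2. Egr3 did not pass either (log2 -0.12, adjusted p = 0.531).

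Egr1 went the other way. This zinc finger factor (chromosome 18, 35020858 to 35020861, plus strand) had 126.1, 130.5 and 88.11 RPM in engaged libraries, against 179.6 and 257.2 RPM at 100 ng/ml. Its log2 difference was -0.92 with an SE of 0.16 (adjusted p = 8.41e-05). Egr1 held this call in every alternative run, and was also below the 214.9 and 218.9 RPM of 1000 ng/ml cells. Without 2C11 it stood at 15.3 and 13.52 RPM in engaged cells and 20.58 and 18.14 RPM in unengaged cells (adjusted p = 0.108). Nab2, a corepressor that binds Egr proteins, had 55.38, 59.64 and 60.63 RPM in engaged libraries, against 81.17 and 89.55 RPM at 100 ng/ml (log2 -0.54, SE 0.10, adjusted p = 1.68e-04). Nab2 was as low in unengaged 10000 ng/ml libraries, with 53.74, 56.08 and 52.7 RPM, and differed there from 100 ng/ml by -0.65 (adjusted p = 1.83e-05). Egr1, in contrast, had 209.2, 196.7 and 203.0 RPM in unengaged 10000 ng/ml libraries and did not pass against 100 ng/ml (log2 -0.08, adjusted p = 0.666). The third named member of this kind, Tbx21, the gene for T-bet, the factor of type 1 helper cells, had 102.3, 102.2 and 92.29 RPM in engaged libraries and 119.9 and 125.2 RPM at 100 ng/ml (log2 -0.31, adjusted p = 0.00796). Tbx21 lost its call with TMM factors, edgeR and DESeq2, without CD4_100 replicate 2 and without engaged replicates 2 and 3.

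Egr1, Nab2 and Tbx21 were among 7 of the 959 dose-induced genes that were called lower in engaged top-dose cells than at 100 ng/ml. Dose-induced genes were those called and at least 2-fold higher at 10000 than at 0 ng/ml without engagement. In that comparison 67.7% of genes were called, 27.5% higher and 40.1% lower. Its means share no library with the main comparison, but the spread of each gene came from all 22 libraries in both. Of the 959, 751 (78.3%) were higher in engaged top-dose cells than at 100 ng/ml and 201 were not called. With quantile normalization 854 were higher and 101 not called. The same genes were set side by side between unengaged 10000 and 100 ng/ml cells: 851 of the 959 were higher and 6 lower. That comparison shares the 100 ng/ml libraries with the main one. It also shares the 10000 ng/ml libraries that chose the genes, induced or repressed, so its counts are partly set by that choice. The other 4 lower genes in engaged cells were 5830405N20Rik, Penk, Spin2 and Gramd1b. Penk lost its call in 17 alternatives, Spin2 in 8 and Gramd1b in 6. In unengaged 10000 against 100 ng/ml cells 5830405N20Rik, Spin2 and Gramd1b were also lower (log2 -0.77, -0.55 and -0.49, adjusted p = 5.08e-04, 0.0139 and 0.00566). Penk was higher there (log2 0.57, adjusted p = 0.0288). All 7 were named after their values were seen, and 4 were lower with quantile normalization and 3 without engaged replicates 2 and 3. Of 1477 dose-repressed genes (at least 2-fold lower), 1364 (92.3%) were lower in engaged cells than at 100 ng/ml and none was higher. With quantile normalization 1178 of the 1477 were lower and none higher, so the shares of induced and repressed genes depended on the scaling. Between unengaged 10000 and 100 ng/ml cells 1436 of the 1477 were lower. Of 3304 genes not called between 10000 and 0 ng/ml, 104 were higher and 660 lower in engaged cells than at 100 ng/ml. These counts have the median shift of -0.21 over all genes in them.

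Feedback regulators rose in 9 of 19 cases and fell in 3, with a median 0.56 above that of all genes. Spry1, an inhibitor of receptor signalling to Ras, had 139.5, 140.9 and 142.0 RPM in engaged libraries, against 33.50 and 36.89 RPM at 100 ng/ml (log2 1.97, SE 0.14, adjusted p = 4.65e-09). The cytokine signalling inhibitor genes Socs2 and Socs1 rose by 1.15 and 0.63. The MAP kinase phosphatase genes Dusp10 and Dusp1 fell by 1.40 and 1.08. Of 16 NF-kB pathway genes 1 rose and 9 fell (4 and 4 with TMM factors), beside 14.8% and 38.7% of all genes, and the list median lay close to that of all genes (-0.075 from it). The adaptor gene Traf1 fell by 0.87 and Nfkbia, which encodes the inhibitor IkB alpha, by 0.73. Of 20 effector and lineage factors 4 rose and 11 fell (5 and 7 with TMM factors), with a median -0.083 from that of all genes. Irf4, a factor whose level follows TCR signal strength, rose by 0.97, and Stat4, Id3 and Bcl6 fell by 1.30, 1.23 and 1.07.

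Many genes of the TCR complex and many interferon-stimulated genes were lower in engaged top-dose cells, in a comparison in which 38.7% of all genes were lower. Of 19 CD4 T cell and TCR complex genes, all present in the table, 15 fell and none rose (12 and 2 with TMM factors), and the median was 0.43 below that of all genes. Cd4 had 91.12, 80.75 and 81.91 RPM in engaged libraries, against 136.9 and 147.2 RPM at 100 ng/ml (log2 -0.74, SE 0.09, adjusted p = 1.49e-06). The adaptor gene Themis fell by 1.36, the exchange factor gene Rasgrp1 by 1.18 and Cd3e by 0.54. Of 15 interferon-stimulated genes 10 fell and 1 rose (8 and 2 with TMM factors), and their median was 0.47 below that of all genes, with Gbp2 down by 1.37, Stat2 by 1.20 and Ifit2 by 1.04.

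Markers of B and antigen-presenting cells moved in the same comparison. Of 12 measured of 16 listed, 3 rose (H2-Ab1, H2-Eb1 and Vpreb3) and 1 fell (Ighm), with 8 and 1 under quantile normalization. Their summed level was 861.1 to 1231 RPM in engaged top-dose libraries, against 712.3 to 860.6 RPM at 100 ng/ml, and 578.1 to 923.0 RPM in unengaged 10000 ng/ml libraries. Igll1, Ebf1, Blk and Bank1 were not in the table. H2-Ab1, an MHC class II chain, had 259.9, 262.4 and 198.2 RPM in engaged libraries and 149.0 and 170.7 RPM at 100 ng/ml. Of 11 myeloid markers only Cst3 was in the table (160.1 to 169.5 RPM in engaged and 163.2 to 168.5 RPM in 100 ng/ml libraries), and none of 7 erythroid and platelet markers was. Of 9 markers of CD8 T, NK and cytotoxic cells 4 were in the table, with a sum of 152.3 to 179.1 RPM in engaged and 116.0 to 123.0 RPM in 100 ng/ml libraries. Without engagement the sum was 104.2 to 133.5 RPM at 0 ng/ml and 267.6 to 279.6 RPM at 10000 ng/ml. Nkg7 and Gzmb of this list were among the dose-induced genes. The part of other cell types in the results was not tested, and with the mean B cell marker level as a covariate 1356 genes were higher and 4368 lower.

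To place each gene on the dose series, the unengaged dose at which its mean level first reached that of engaged top-dose cells was read by interpolation on log dose. This matching dose is a description and has no test. For the 959 induced genes its median was 579 ng/ml (quartiles 357 and 934), and it was 637, 683 and 461 ng/ml from each engaged library alone. It lay between 100 and 1000 ng/ml for 703 genes (73.3%), below 100 ng/ml for 39 (4.07%), between 1000 and 10000 ng/ml for 104 (10.8%), and 113 (11.8%) exceeded every unengaged mean. The 1477 repressed genes had a median of 2570 ng/ml (quartiles 931 and 8100), and 1470, 3430 and 3810 ng/ml per engaged library. Among them 325 were below every unengaged mean. With quantile normalization the medians were 794 and 1320 ng/ml. Since the first crossing is read, a gene that peaks or levels off by 100 ng/ml can match a low dose and also lie near its unengaged 10000 ng/ml level. Nab2 matched 53.5 ng/ml, with means of 58.55 RPM in engaged and 54.18 RPM in unengaged 10000 ng/ml cells. Egr1 matched 51.8 ng/ml, but its means were 114.9 and 203.0 RPM. Where the curve is flat a small difference in level moves the dose far. Dgka, for example, matched 8450 ng/ml, with means of 160.8 RPM at 1000 and 134.1 RPM at 10000 ng/ml.

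Among induced genes, the lists fell at different doses. Chemokines (4 genes) had a median matching dose of 243 ng/ml, cytokines (13) of 285, glycolysis genes (5) of 294, inhibitory receptors and ligands (7) of 297 and early transcription factors (13) of 323 ng/ml. Activation molecules (11) had 512 ng/ml, ribosome biogenesis genes (22) 597 ng/ml and ribosomal proteins (13) 3630 ng/ml. Within the early factors the dose ran from 51.8 ng/ml for Egr1, 94.8 for Egr3 and 95.3 for Nr4a1 over 323 for Egr2 and 697 for Myc to 792 for Nr4a2. Within the cytokines it ran from 114 ng/ml for Il13 over 248 for Ifng and 446 for Csf2 to 783 for Il2. Pdcd1 and Cd274 each matched 141 ng/ml, Cd69 79.1 ng/ml and Il2ra 844 ng/ml. For Nr4a1 and Cd69, which did not differ between unengaged 100 and 10000 ng/ml cells by the test, a low matching dose does not mark a low level. The naive genes that were repressed (19) had a median of 2550 ng/ml, and none was below 100 ng/ml. Matching doses of single genes thus ran from below 100 ng/ml to beyond the top dose, and the order among the lists was not tested.

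**Figure D4:**
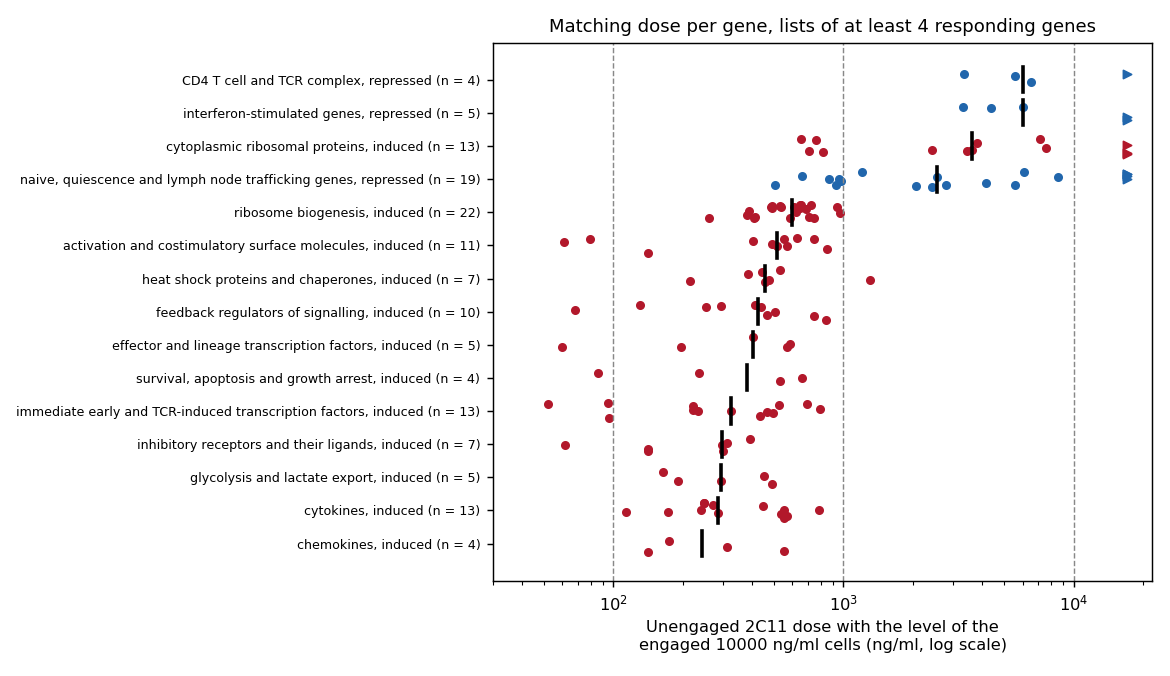
Unengaged 2C11 dose (log scale) whose mean level equals that of engaged 10000 ng/ml cells, for each dose-induced (red) or dose-repressed (blue) gene of lists with at least 4 such genes, with list medians as black bars. Triangles at the right edge are genes beyond every unengaged mean. Chemokines lie between 141 and 553 ng/ml, cytokines between 114 and 783 ng/ml, ribosome biogenesis between 261 and 967 ng/ml, and naive genes from 502 ng/ml upward.

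A small number of genes lay outside the whole dose series. In 135 genes (1.32%) all 3 engaged top-dose libraries were above all 11 unengaged libraries, and in 181 (1.77%) they were below. With engaged replicate 1 left out these counts were 413 and 734, without engaged replicate 2 they were 215 and 297, and without engaged replicate 3 the first was 272. The second was 308 and 275 without CD4_10000 replicates 1 and 3. The rule asks for every library, so leaving any out could only keep or raise a count. H2afz, a histone variant of active promoters, had 1666, 1687 and 1711 RPM in engaged libraries, against 1316 and 1259 RPM at 100 ng/ml, and 1383 RPM in the highest unengaged 10000 ng/ml library. Dpy30, a subunit of histone H3 lysine 4 methyltransferases, had 136.9, 130.7 and 134.5 RPM in engaged libraries, against 79.85 and 87.87 RPM at 100 ng/ml. Apitd1, Lamtor2, Park7 and Hist2h2ab were the other 4 named above the series. Gpr132, a G protein-coupled receptor gene, had 33.74, 33.25 and 32.66 RPM in engaged libraries and 59.41 and 61.74 RPM at 100 ng/ml, with 42.36 RPM in the lowest unengaged 10000 ng/ml library. Sema4d, a semaphorin gene, had 71.10, 64.28 and 58.46 RPM in engaged libraries and 103.4 and 116.9 RPM at 100 ng/ml. Sema4d was also called lower in engaged cells without 2C11 (log2 -0.39, adjusted p = 0.0182), though not with quantile normalization. The median of all genes in that comparison was -0.23. Vim, Nfkbia and the pseudogenes Rps25-ps1 and Rps15-ps2 were the other 4 below. At 0 ng/ml, 10 of the 135 genes above the series were called higher in engaged cells (7.41%) and 34 of the 181 below it lower (18.8%), beside 0.763% and 13.6% of all genes. With quantile normalization these counts were 18 and 0.

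Genes called in the main comparison were also read at 0 ng/ml, in libraries that do not enter its means. The spread of each gene was estimated from all 22 libraries for both comparisons, so their calls are not independent. Of the 1517 genes higher in engaged top-dose cells than at 100 ng/ml, 63 (4.15%) were higher and 78 (5.14%) lower in engaged cells without 2C11, and of the 3959 lower genes none was higher and 834 (21.1%) were lower, beside 0.763% higher and 13.6% lower among all genes. With quantile normalization 81 of the 1517 were higher and 3 lower, and 21 of the 3959 were lower. Il2 (log2 -0.10, adjusted p = 0.789), Klf2 (-0.07, adjusted p = 0.792) and S1pr1 (-0.21, adjusted p = 0.301) were not called between engaged and unengaged cells at 0 ng/ml.

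Among genes of at least median abundance (23.3 RPM), the others of the 12 with the largest rises were Crabp2, Ftl1, Stap2, Pla2g12a and the entry mmu-mir-2134-4. Crabp2, which encodes a carrier of retinoic acid (chromosome 3, 87752615 to 87752619, plus strand), had 259.6, 267.2 and 210.4 RPM in engaged libraries, against 29.96 and 34.59 RPM at 100 ng/ml. At 7.39-fold (log2 2.89, SE 0.19, adjusted p = 1.40e-09) it was the largest rise that the rule named. Ftl1, the ferritin light chain gene, had 32.79, 36.73 and 37.35 RPM in engaged libraries, against 11.44 and 11.03 RPM at 100 ng/ml, but 24.67 RPM on average at 0 ng/ml, so its level did not follow the dose. Stap2 had 121.9, 243.1 and 302.7 RPM in engaged libraries and 82.58 and 60.68 RPM at 100 ng/ml, and lost its call without engaged replicates 2 and 3. At 0 ng/ml Stap2 was already higher in engaged cells, with 131.1 and 137.4 RPM against 52.1 and 50.39 RPM (log2 1.37, adjusted p = 0.0305). The entry mmu-mir-2134-4 had 75.29, 142.9 and 184.9 RPM in engaged libraries and 60.01 and 32.82 RPM at 100 ng/ml, and at 0 ng/ml it was also higher in engaged cells, with 166.5 and 156.3 RPM against 47.31 and 38.34 RPM (log2 1.90, adjusted p = 0.0146).

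Start sites without a gene symbol were tested apart. Of 3642 such clusters 692 (19.0%) were higher and 875 (24.0%) lower in engaged top-dose cells than at 100 ng/ml, and 357 and 301 of them differed at least 2-fold. The count of higher clusters was 449 and 360 without CD4_100 replicates 1 and 2, and that of lower clusters 537 without CD4_100 replicate 1.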

How the data were processed

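CAGE libraries of primary mouse CD4+ T cells (22 libraries in 10 groups) were used, and the hybridoma libraries of the series were not used here. The deposited table gives RPM per tag cluster, scaled to library totals by the authors. The processing notes of the submitters name the build mm9 and the tools HISAT2 2.0.5 and BWA 0.7.12; cluster calling and naming are not given in the sources used here. Low values were whole multiples of 1 step: 100% were whole tags within 0.1 tag, which gave totals of 4.423 to 22.81 M tags, of which the table holds 83.28 to 87.13% in the 5 libraries of the main comparison. Every cluster reaches at least 3.002 RPM in some library, so rare transcripts can be missing. Of 17272 clusters, 3643 carried no symbol and 371 several. RPM was summed over clusters with a single symbol into 10219 genes (13 symbols had become calendar dates). Whether coordinates count from 0 or 1 is unstated. No pair of replicates of a group agreed within counting error.

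Genes with at least 1 RPM in 2 libraries (10217) entered a linear model in limma (3.58.1, under R 4.3.3, with an intensity trend) of log2(RPM + 1), in which each combination of dose and engagement among the 22 libraries had its own mean. P-values are two-sided and Benjamini-Hochberg adjusted over all genes, and intervals are at 95%. A log2 difference on this scale understates changes of low genes. The fit was tested on simulated data. Alternatives covered scaling, pseudocount, filter, edgeR 4.0.16 and DESeq2 1.42.0 on recovered tags, a replicate block, a B cell marker covariate, highest clusters and left-out libraries.

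Matching doses were interpolated on log10 dose, with 0 ng/ml placed at 1. Named genes are the 12 higher and 12 lower called genes of at least median abundance (23.3 RPM) with the largest change and no overlap, without predicted models, up to 4 members per pathway list, 10 genes in any case, and 6 genes above and 6 below the dose series with the widest gaps. Further list members are given as examples. The members, 24 gene lists (5 of them markers) and tests were chosen with earlier results of these data known. The comparison at 0 ng/ml was added after the libraries had been seen. Promoters come from RefSeq (GRCm38.p6), and motifs were searched in 300 bases on both strands.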

Additional observations from a re-analysis of the deposited data

How the results depend on the processing

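Against 100 ng/ml, the 1517 higher and 3959 lower genes became 2635 and 2225 with DESeq2, 2742 and 2344 with TMM factors, 2868 and 2453 with edgeR, and 2452 and 2542 with quantile normalization. Leaving out 1 library gave 1008 to 1488 higher and 2751 to 3932 lower genes. The 744 genes called against 1000 ng/ml became 19 with both groups fitted alone, 2194 with the B cell marker covariate, 480 with quantile normalization and 82 without engaged replicates 2 and 3, an alternative chosen after seeing the data, and 12 to 1164 with 1 library left out. The 866 genes against 10000 ng/ml became 303 with both groups alone, 20 without engaged replicates 2 and 3, and 261 to 1231 with 1 library left out. Between unengaged 10000 and 100 ng/ml the range was 4732 to 5877.

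With 1 library left out, 6928 to 7710 genes lay within 2-fold and 2716 to 3659 within 1.5-fold (5893 with a pseudocount of 5). Outside the dose series, 140 to 413 genes lay above and 182 to 734 below with 1 library left out, 211 above with quantile normalization, and 640 above and 522 below without engaged replicates 2 and 3. The rule for genes outside the dose series asks for every library, so leaving libraries out could only keep or raise those counts. The median matching dose ranged from 533 to 656 ng/ml for induced and from 2160 to 3790 ng/ml for repressed genes. It was 794 and 1320 ng/ml with quantile normalization, and 1470 ng/ml for repressed genes without engaged replicates 2 and 3. Unnamed clusters ranged from 360 to 729 higher and from 537 to 834 lower. The cause of the other changes was not tested.

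Of 2106 values of 117 named genes under the alternatives, 2008 kept direction and side of the threshold, 64 lost and 24 gained the call and 10 turned sign. Those 10 were Rplp1 without CD4_100 replicate 2 (-0.58), Nr4a1 with DESeq2 (0.16), TMM factors (0.17), edgeR (0.17) and without engaged replicates 2 and 3 (0.17), Cd69 with DESeq2 (0.090), TMM factors (0.10) and edgeR (0.10), Pdcd1 without engaged replicate 1 (-0.047) and Cd274 without CD4_100 replicate 1 (-0.086). With 1 library left out Rplp1 ranged from -0.58 to 2.38, Pdcd1 from -0.047 to 0.14 and Cd274 from -0.086 to 0.19.

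Nothing in the labels says that a replicate number marks a shared culture or animal. Deviations of same-numbered libraries correlated at 0.13 and 0.203 between engaged top-dose and 100 ng/ml libraries. With replicate number as a block, 1701 genes were higher and 3811 lower. Shares of promoter motifs by gene group were not run, since only 76.3% of the genes tested had a promoter sequence, and matching doses were not recomputed with count models.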
